A study of Mus musculus with 24 samples.

Results

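The 53 genes described here encode the ligands, receptors, secreted inhibitors and nuclear factors of Wnt signalling. They were chosen by name from the 33079 genes of the table: every Wnt, Frizzled, Dickkopf, secreted Frizzled-related protein and R-spondin gene, together with Lrp5, Lrp6, Axin1, Axin2, Lef1, Tcf7, Tcf7l1, Tcf7l2, Wif1, Lgr5, Rnf43 and Znrf3. They comprised 19 Wnt ligands, 10 Frizzled receptors, 4 Dickkopf genes, 4 secreted Frizzled-related proteins, 4 R-spondins and 12 single genes. The rule uses names only and no measured value, although the members were chosen with earlier results of these data known. A gene was tested when its mean exceeded 0.5 RPM (reads scaled to the library total) over the 12 time points of WT or of KO, which 15112 genes of the table and 44 of the 53 Wnt genes did. All 44 passed this minimum in both genotypes.

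The study asked what the loss of REV-ERBα and REV-ERBβ, nuclear receptors that repress transcription within the circadian clock, does to gene expression in differentiated mouse embryonic stem (ES) cells. Both groups carried the Per2::Luciferase knock-in, a reporter of the clock gene Per2. WT is this line without further change, and KO is the Rev-erba/Rev-erbb deficient line made from it by CRISPR/Cas9 deletion of an exon in each gene. ES cells were aggregated to embryoid bodies and cultured up to differentiation day 28, and both groups then received 100 nM dexamethasone, a steroid used to set cellular clocks to a common phase. RNA was then sampled every 4 h from 12 to 56 h, with 1 library for each genotype and time point and the RNA of 3 embryoid bodies pooled in each. The 12 KO libraries all came from cells of the deficient line, picked as colonies, so an effect of the deletion and a difference between the lines cannot be told apart. No time point had a replicate, so every p-value below rests on the spread between time points and not on replicate cultures. Between the genotypes this is the spread over time points within each genotype, pooled over both. In the slope and rhythm tests it is the spread that remains after the fitted terms.

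Between 6183501 and 10287969 fragments per library lay on exons. The targeted genes were still transcribed in KO: Nr1d1, which encodes REV-ERBα, ranged from 3.58 to 7.48 RPKM (reads scaled to exonic length and library total) in WT and from 2.48 to 9.74 in KO, and Nr1d2, which encodes REV-ERBβ, from 0.895 to 3.02 in WT and from 1.38 to 5.27 in KO. These values span the whole gene and cannot show the loss of an exon, so they do not check the labels. Embryoid bodies hold mixed cell types, and the summed RPKM of cell type markers differed between libraries. Single genes weigh heavily in such sums. Afp had a mean of 165 RPKM in WT and 174 in KO, where the whole endoderm and liver sum had means of 416 and 366. The 4 libraries highest in endoderm and liver markers were WT at 16 and 36 h and KO at 16 and 56 h, and the 2 highest in neuronal and glial markers were WT at 36 and 44 h. Without those 4 libraries the same numbers of Wnt genes, 13 and 7, were called higher and lower in KO as with all 24, and without those 2 the numbers were 13 and 6. In such bulk samples, fewer cells of a type and less RNA per cell cannot be told apart.

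Wnt proteins are secreted lipid-modified ligands that bind Frizzled receptors. Together with the co-receptors LRP5 and LRP6 they stop the breakdown of β-catenin, which then acts with TCF/LEF factors on target genes, or they signal without β-catenin through other co-receptors. R-spondins strengthen the signal by removing the ligases RNF43 and ZNRF3 from the receptors, whereas Dickkopf proteins, secreted Frizzled-related proteins and WIF1 weaken it outside the cell. In embryoid bodies Wnt signalling is known for its part in the formation of mesoderm and endoderm, and later many ligands are made by epithelia.

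A larger share of the Wnt genes than of all genes tested was called higher in KO, while the share called lower was near that of all genes. With limma, the test of the genotype on log2(RPKM + 0.1) with Benjamini-Hochberg adjustment over all genes and a threshold of 0.05, 20 of the 44 Wnt genes passed (45.5%), against 25.9% of all genes tested. Of these, 13 were higher in KO (29.5%, against 11.2% of all genes) and 7 were lower (15.9%, against 14.7%). The members called higher were mainly ligands, 8 of the 13 tested, and the members called lower included R-spondins and single receptors. The median log2 difference was -0.06 over the 44 Wnt genes and -0.01 over all genes tested. The 12 WT and the 12 KO values overlapped for each of the 44 Wnt genes, while they did not overlap for 92 genes of the table, 0.609%. The log2 differences and their intervals are plotted by class of Wnt gene, and the values in each library are plotted for the 20 genes past the threshold.

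**Figure D1:**
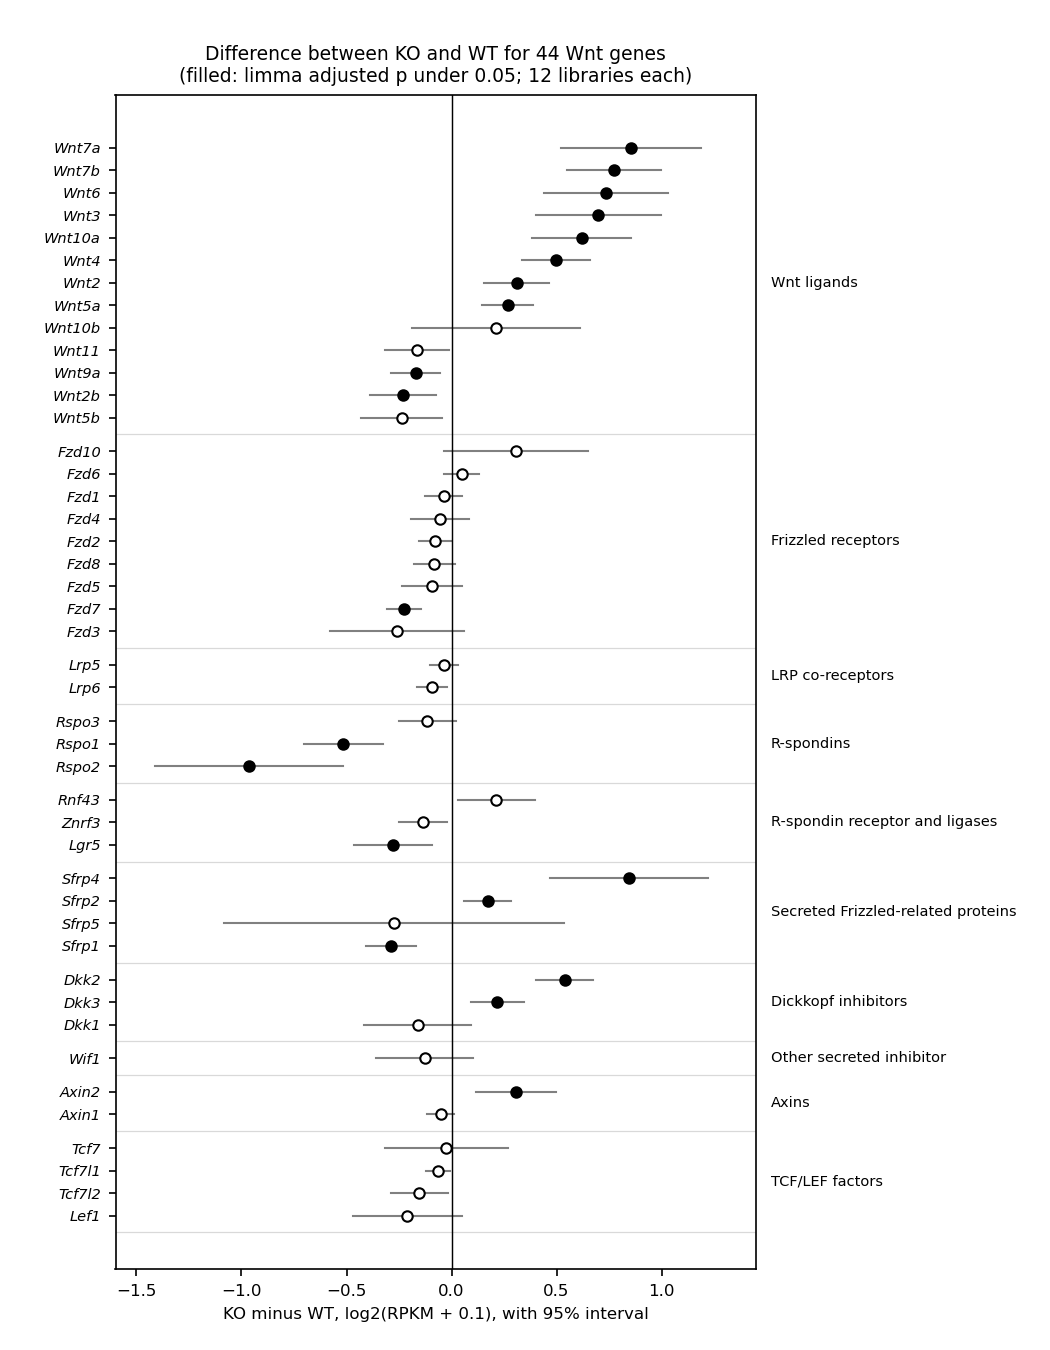
Difference between KO and WT in mean log2(RPKM + 0.1) for the 44 Wnt genes tested, by class, with 95% intervals from limma over 12 libraries of each genotype. Filled points passed an adjusted p of 0.05: 8 ligands stand to the right of 0, from Wnt5a at 0.27 to Wnt7a at 0.86, while Rspo1 at -0.52 and Rspo2 at -0.97 stand furthest to the left.

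**Figure D2:**
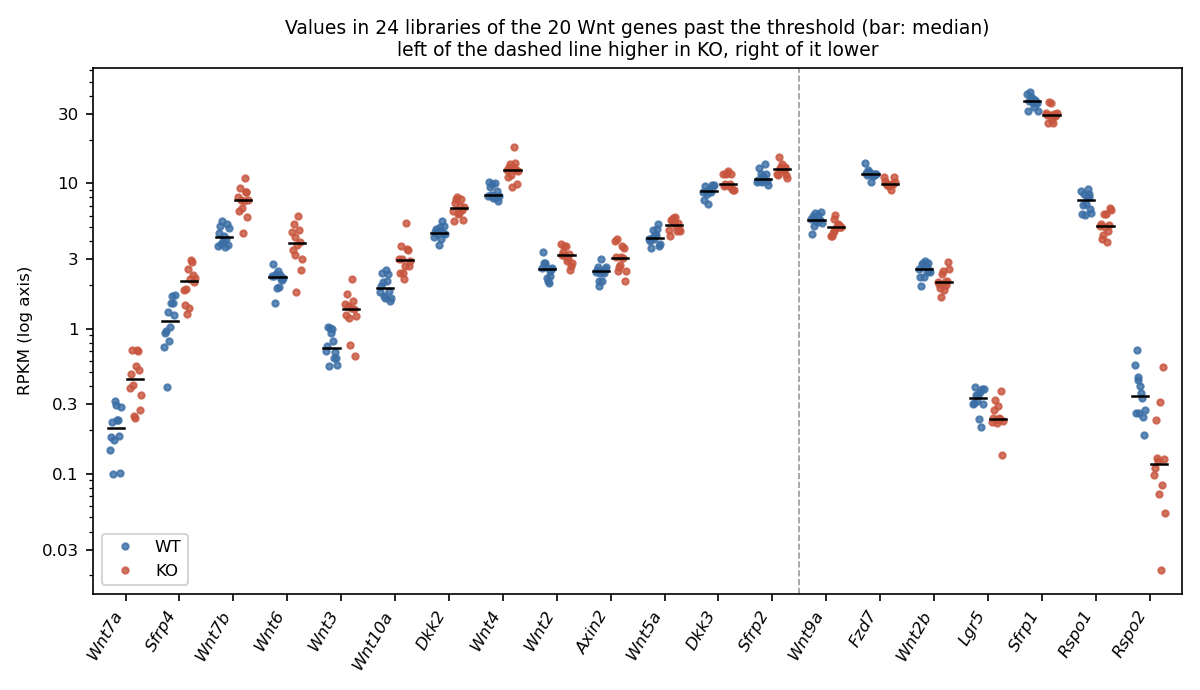
RPKM on a log axis in each of the 12 WT (blue) and 12 KO (red) libraries for the 20 Wnt genes past the threshold, with the median as a bar. The values of the genotypes overlap for every gene, least for Dkk2, of which 11 KO libraries lie above the highest WT library.

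The ligand class was higher in KO as a sum, although not every ligand was: of its 13 genes tested, 8 were called higher, 2 lower and 3 neither. The RPKM summed over its 19 genes ranged from 33.5 to 40.6 in WT, with a median of 36.4, and from 39.2 to 61.6 in KO, with a median of 47.6, and it was higher in KO at each of the 12 time points. Wnt4, a ligand known from the formation of kidney and gonad, contributed most to this sum, 24.0% in WT and 26.4% in KO. It ranged from 7.53 to 10.1 RPKM in WT (median 8.29) and from 9.39 to 17.9 RPKM in KO (median 12.3). The KO library was above the WT library of the same hour 12 of 12 times, and 10 KO libraries were above the whole WT range. The log2 difference was 0.50 (SE 0.08, limma adjusted p = 8.33e-05).

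Wnt7b, a ligand of epithelia such as that of the lung, showed a larger difference. Its values ran from 3.63 over a median of 4.25 to 5.54 RPKM in WT and from 4.54 over 7.69 to 10.9 RPKM in KO. Of the KO libraries, 11 exceeded every WT library, and only that at 32 h did not. On the log2 scale KO was higher by 0.77 (SE 0.11, limma adjusted p = 2.26e-05). Its relative Wnt7a, best known from limb and nerve development, was expressed far lower, at 0.0990 to 0.317 RPKM in WT (median 0.205) and 0.241 to 0.711 RPKM in KO (median 0.446). With means of 11.6 (WT) and 25.9 (KO) fragments per library, Wnt7a carried the largest counting error among the ligands called higher. Its log2 difference of 0.86 (SE 0.16, limma adjusted p = 0.000493) is understated by the 0.1 added before the logarithm, since the ratio of the mean RPKM was 2.25, and it was 0.27 with 1 and 1.12 with 0.01 added instead.

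Wnt6 and Wnt10a lie next to each other on chromosome 1, on the same strand and 6699 bases apart, so both are read in the same direction. Wnt6, a ligand of surface epithelia, ranged in WT from 1.50 to 2.79 RPKM around a median of 2.27, and in KO from 1.79 to 5.94 around 3.88. The lowest KO library, at 32 h, fell inside the WT range, while 10 KO libraries lay above it. KO exceeded WT by 0.74 on the log2 scale (SE 0.14, limma adjusted p = 0.000609). Wnt10a, a ligand of tooth and skin development, was at 1.54 to 2.52 RPKM in WT (median 1.89) and at 2.19 to 5.32 RPKM in KO (median 2.97). For it, KO was the higher genotype at all 12 hours, with a log2 difference of 0.62 (SE 0.11, limma adjusted p = 0.000389).

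Wnt3, the ligand needed for the primitive streak, was found at 0.550 to 1.02 RPKM in WT (median 0.732) and at 0.646 to 2.19 RPKM in KO (median 1.37). KO was higher at 11 of 12 hours, by 0.70 on the log2 scale (SE 0.14, limma adjusted p = 0.00108). Its neighbour Wnt9b, 24353 bases away on the other strand of chromosome 11, stayed at no more than 0.0550 RPKM in any library. The 6 ligands Wnt3, Wnt4, Wnt6, Wnt7a, Wnt7b and Wnt10a had the largest log2 differences of the 13 ligands tested.

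The remaining ligands called higher showed smaller differences. Wnt5a, which signals mainly without β-catenin through ROR receptors, ranged from 3.59 to 5.29 RPKM in WT (median 4.19) and from 4.37 to 5.89 RPKM in KO (median 5.20), a log2 difference of 0.27 (SE 0.06, limma adjusted p = 0.00178). Wnt2, a ligand of lung and heart development, ranged from 2.05 to 3.39 RPKM in WT (median 2.58) and from 2.54 to 3.85 RPKM in KO (median 3.19), with a difference of 0.31 (SE 0.08, limma adjusted p = 0.00375). Each was higher in KO at 11 of 12 hours, although the ranges overlapped over much of their width.

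Wnt9a and Wnt2b were the ligands called lower. Wnt9a, known from joint formation, was the second ligand by level in WT. It ranged from 4.49 to 6.34 RPKM there (median 5.62) and from 4.32 to 6.06 RPKM in KO (median 4.98), and its log2 value was lower in KO by -0.17 (SE 0.06, limma adjusted p = 0.0264). For Wnt2b, a ligand of eye and limb development, WT held 1.95 to 2.91 RPKM (median 2.57) and KO 1.64 to 2.88 RPKM (median 2.09), a log2 difference of -0.23 (SE 0.08, limma adjusted p = 0.0279). The ranges of both ligands overlapped almost wholly. The call of Wnt2b was lost without the KO library of 24 h (-0.20, limma adjusted p = 0.0507), the only one of the 24 whose removal did so, and without the WT libraries of 36 and 44 h together (-0.22, limma adjusted p = 0.0637). Wnt3a, the neighbour of Wnt9a across 16178 bases on chromosome 11, was below the minimum, at no more than 0.265 RPKM.

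Of the other ligands tested, Wnt5b (-0.24), Wnt11 (-0.16) and Wnt10b (0.21) did not pass, with limma adjusted p = 0.065, 0.109 and 0.446. Wnt5b came below the threshold when 1 of 5 libraries was left out (WT at 24, 44 or 48 h, KO at 24 or 32 h), with log2 differences from -0.28 to -0.27 and adjusted p down to 0.0252, and Wnt11 when the KO library of 40 h was left out (-0.21, limma adjusted p = 0.0226). Wnt1, Wnt3a, Wnt8a, Wnt8b, Wnt9b and Wnt16 were under the minimum and were not tested. Among them Wnt1, a ligand of the midbrain, reached 0.695 RPKM in WT at 56 h, and Wnt8b, a ligand of the forebrain, reached 0.424 RPKM in KO at 48 h. Wnt8a was at 0 in the median library of both genotypes.

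Promoter sequences of RefSeq (build GRCm38.p6) were available for 34 of the 53 Wnt genes, with 43 starts. Those of 4 of the 6 ligands above are shown because the 6 also varied together, as described next. Each sequence holds the 250 bases before the start of transcription, on the strand of the gene, and the RefSeq start equals the gene start of the table for Wnt3, Wnt4 and Wnt6 and lies 16 bases from it for Wnt7a. Capitals mark any match, on either strand, to AGGTCA (the half-site that REV-ERBs and RORs bind), CACGTG (the E-box of the clock factors CLOCK and BMAL1), CTTTGAT or CTTTGAA (sites of TCF/LEF factors) or CCAAT (the box bound by NF-Y).
Wnt3, chr11:103773925-103774174, plus strand: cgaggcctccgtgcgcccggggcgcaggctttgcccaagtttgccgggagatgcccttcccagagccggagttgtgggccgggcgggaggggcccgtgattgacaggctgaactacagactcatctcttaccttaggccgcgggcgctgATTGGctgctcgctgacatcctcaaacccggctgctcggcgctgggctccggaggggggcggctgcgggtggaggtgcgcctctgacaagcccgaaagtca
Wnt4, chr4:137277385-137277634, plus strand: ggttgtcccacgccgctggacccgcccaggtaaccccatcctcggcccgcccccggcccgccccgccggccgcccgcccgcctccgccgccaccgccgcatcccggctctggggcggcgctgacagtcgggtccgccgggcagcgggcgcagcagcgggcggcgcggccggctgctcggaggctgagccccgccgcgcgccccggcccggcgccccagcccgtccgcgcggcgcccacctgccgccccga
Wnt6, chr1:74771642-74771891, plus strand: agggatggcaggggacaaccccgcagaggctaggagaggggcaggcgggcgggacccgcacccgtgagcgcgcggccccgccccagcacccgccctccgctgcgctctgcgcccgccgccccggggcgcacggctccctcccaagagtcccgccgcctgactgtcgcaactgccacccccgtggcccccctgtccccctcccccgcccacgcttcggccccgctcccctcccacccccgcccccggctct
Wnt7a, chr6:91411354-91411603, minus strand: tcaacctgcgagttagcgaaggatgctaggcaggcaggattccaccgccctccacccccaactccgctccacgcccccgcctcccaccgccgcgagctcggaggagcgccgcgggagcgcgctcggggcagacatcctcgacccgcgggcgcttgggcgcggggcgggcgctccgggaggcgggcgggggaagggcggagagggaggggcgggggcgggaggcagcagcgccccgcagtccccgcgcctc
Only the sequence of Wnt3 held a match, a CCAAT box on the opposite strand that begins 101 bases before the start. The shares of G and C were 68%, 85.2%, 79.6% and 77.6% in this order, where the median was 52.4% over all promoters and 66.8% over those of the Wnt genes, and the numbers of CG pairs were 22, 44, 28 and 34. Over all 32851 promoters of the table, AGGTCA was present in 14.0%, CACGTG in 6.02%, a TCF/LEF site in 7.48% and CCAAT in 33.85%. Of the 43 starts of the 34 Wnt genes, 2 held AGGTCA (Tcf7 and Wnt16), 5 held CACGTG (Fzd9, Rspo4, Wif1, Wnt9a and, of its 4 starts, that of Lef1 45997 bases from the start in the table), 3 held a TCF/LEF site (Dkk1, Wnt11 and Wnt5b) and 10 held CCAAT. A match is a description of these letters in this window and says nothing about binding.

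The 6 ligands with the largest differences rose and fell together across the KO libraries. In KO all of them were highest at 40 h, and all but Wnt3 were lowest at 32 h, Wnt3 being lowest at 52 h. Pearson r of their log2(RPKM + 0.1) over the 12 KO libraries was 0.76 to 0.95 for the 15 pairs, with a median of 0.88. Over the 12 WT libraries the same pairs gave -0.05 to 0.46, with a median of 0.25, and over all 24 libraries, taken as deviations from the genotype mean, 0.53 to 0.82. The difference in r between the genotypes was not tested, and the SD of log2(RPKM + 0.1) of each of the 6 ligands was smaller in WT. The genes of each pair share libraries, library totals and neighbouring time points, and the 6 were picked after their values were seen. The KO values of 40 h come from 1 library, and r without that library was not computed. Wnt7a was about as high in KO at 20 h as at 40 h.

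The closest pair over the 24 libraries was Wnt6 and Wnt7b (r = 0.82), on different chromosomes. Wnt2 and Wnt5a, also higher in KO, did not follow the 6 ligands, with r from -0.27 to 0.11. Axin2, a target gene of β-catenin signalling, had r from 0.29 to 0.68 with the 6 ligands, from -0.33 to 0.66 within WT and from 0.50 to 0.73 within KO. The signalling itself was not measured. As picked examples and not a full list, Rspo1 (-0.56 to -0.25), Sfrp1 (-0.53 to -0.28) and Fzd4 (-0.64 to -0.35) had negative r with all 6. Within KO these r were -0.69 to -0.53, -0.62 to -0.48 and -0.69 to -0.40, and within WT they were -0.56 to 0.43, -0.49 to 0.06 and -0.67 to -0.03. Over all 946 pairs of tested Wnt genes the median r was 0.05.

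**Figure D3:**
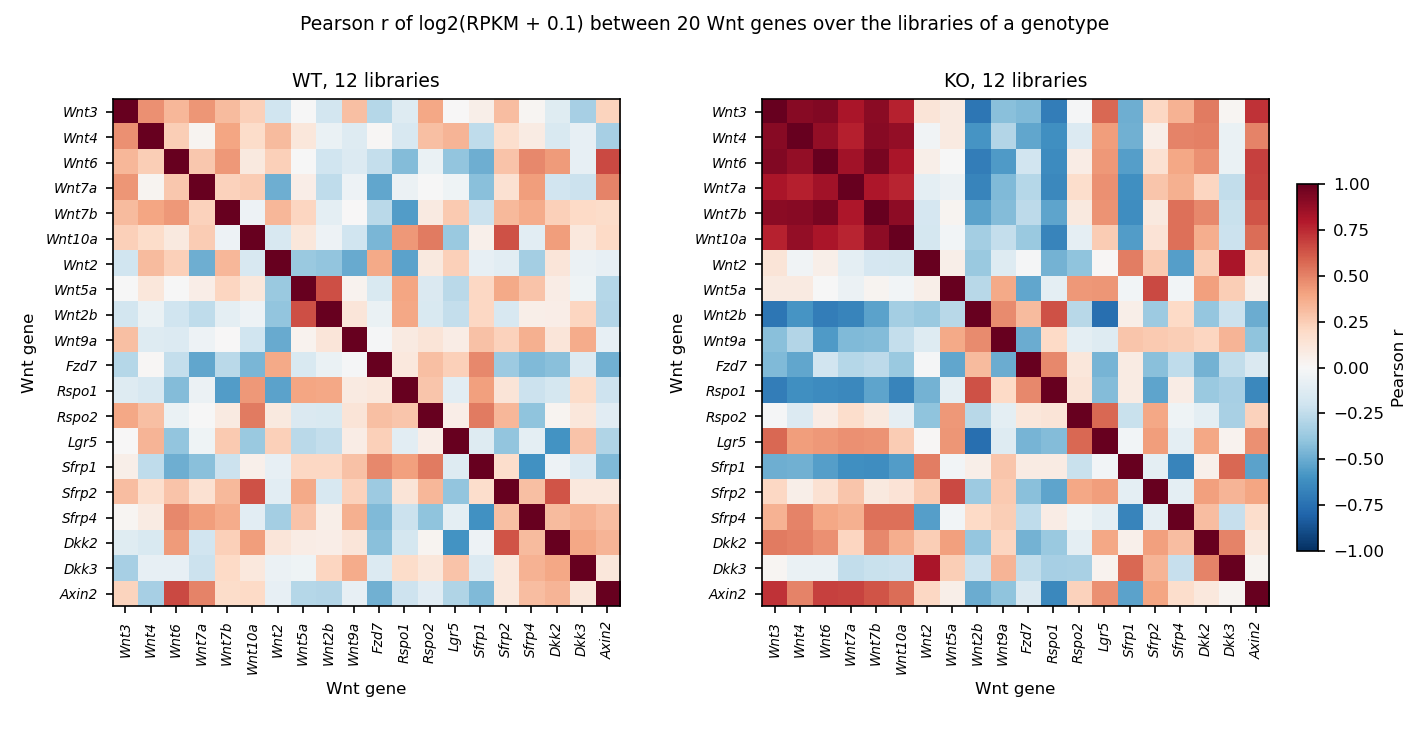
Pearson r of log2(RPKM + 0.1) between the 20 Wnt genes past the threshold over the 12 WT libraries (left) and the 12 KO libraries (right), on a scale from -1 (blue) to 1 (red). The block of 6 ligands at the upper left has r of 0.76 to 0.95 in KO and -0.05 to 0.46 in WT.

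In KO, epithelial markers moved with these ligands. Of 10 epithelial markers, 9 were called higher in KO, among them the keratins Krt8 (0.71) and Krt14 (0.90), the tight junction gene Cldn4 (0.86) and the adhesion gene Cdh1 (0.67), and their median log2 difference was 0.62. The summed RPKM of the 10 markers ranged from 363 to 646 in WT and from 591 to 1296 in KO, none of the 10 was at 0, and in KO the sum was highest at 40 h and lowest at 32 h, as for 5 of the 6 ligands. Over the 12 KO libraries r between each of the 6 ligands and the mean of these markers was 0.71 to 0.86, and over the 12 WT libraries it was -0.15 to 0.54. Outside the 6, Wnt10b (0.73), Fzd2 (0.73) and Wif1 (0.71) had a similar r in KO. Nor did every ligand follow these markers most closely. Within WT, r of Wnt4 was 0.42 with them, 0.74 with leukocyte markers and 0.64 with smooth muscle and fibroblast markers. Within KO these r of Wnt4 were 0.86, 0.43 and 0.41. The part of these markers in the ligand values was not tested.

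**Figure D4:**
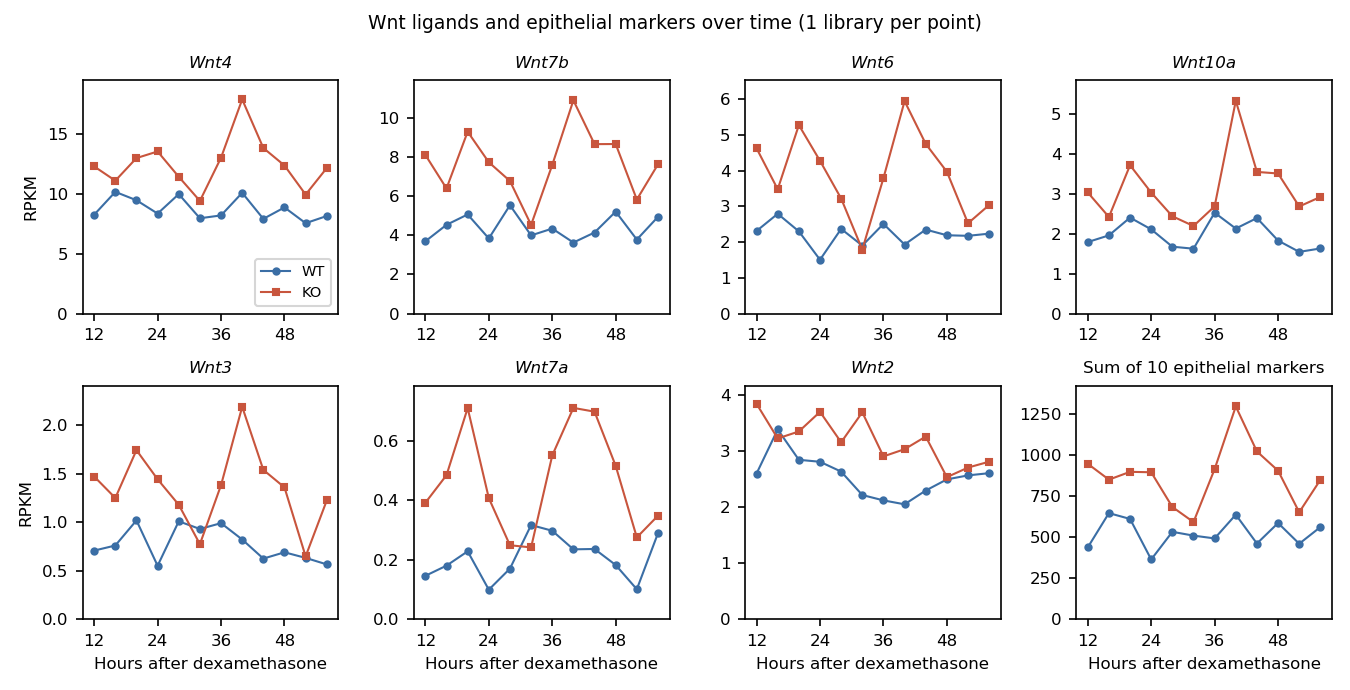
RPKM of the 6 ligands with the largest differences, of Wnt2 and of the sum of 10 epithelial markers against hours after dexamethasone, in WT (blue circles) and KO (red squares), with 1 library per point. In KO the 6 ligands and the marker sum are highest at 40 h, where Wnt4 reached 17.9 RPKM, whereas Wnt2 has no peak there. The 40 h values come from 1 library, and Wnt7a is about as high at 20 h.

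Markers of some other cell types differed between the genotypes as well. Of the lists, 8 of 12 neuronal and glial markers tested were called lower in KO (summed RPKM 6.60 to 71.9 in WT and 3.63 to 15.2 in KO), 5 of 8 endothelial, 7 of 9 heart (with 1 lower, and Nppa counted with 2 entries, both higher) and 3 of 8 leukocyte markers were called higher, and of 13 smooth muscle and fibroblast markers 8 were higher and 2 lower. By limma 0 of the 5 pluripotency markers tested and 0 of the 8 markers of proliferating cells passed, with 0 and 2 at an unadjusted p under 0.05. Of the endoderm and liver markers 2 of 11 were lower. For comparison, 11.2% of all genes tested were called higher and 14.7% lower. The part of these lists in the values of the Wnt genes was not tested.

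Of the 9 Frizzled receptors tested, 1 passed the threshold. The RPKM summed over the class ranged from 66.4 to 75.4 in WT and from 61.6 to 75.4 in KO. Fzd1 alone made up 46.5% of the sum in WT and 47.7% in KO, and its 30.7 to 35.4 RPKM in WT (median 31.6) and 28.0 to 39.0 RPKM in KO (median 30.9) gave a log2 difference of -0.04 with a 95% interval from -0.13 to 0.05. Fzd2 stood at 10.7 to 12.9 RPKM in WT (median 12.0) and at 10.2 to 12.9 RPKM in KO (median 11.1), a difference of -0.08 that did not pass (limma adjusted p = 0.126) and that passed without the KO library of 20 h (-0.10, limma adjusted p = 0.0446).

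Fzd7, a receptor of stem cells and early mesoderm, was the exception. It ranged from 10.3 to 13.9 RPKM in WT (median 11.7) and from 9.03 to 11.1 RPKM in KO (median 9.90), lower in KO at each of the 12 hours. Of the WT libraries, 11 were above all KO libraries. The log2 difference was -0.23 (SE 0.04, limma adjusted p = 0.00017). The other 6 receptors tested had log2 differences between -0.26 (Fzd3) and 0.31 (Fzd10) and did not pass, and Fzd9 was below the minimum.

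By limma 0 of the 2 co-receptor genes passed, and Lrp6 was at an unadjusted p under 0.05. Lrp5 ranged from 7.89 to 9.87 RPKM in WT (median 8.79) and from 7.77 to 8.97 RPKM in KO (median 8.60), a log2 difference of -0.04 with a 95% interval from -0.10 to 0.03. Lrp6 ranged from 6.94 to 8.31 RPKM in WT (median 7.85) and from 6.31 to 7.91 RPKM in KO (median 7.45). Its difference of -0.09 (95% interval -0.16 to -0.02) was just above the threshold at an adjusted p of 0.0549 by limma, although KO was lower at 11 of 12 hours. Leaving out any 1 of 5 libraries (WT at 20 h, KO at 12, 20, 48 or 56 h) brought it below, at log2 differences from -0.11 to -0.10. With all libraries kept, Lrp6 also passed when limma used a mean-variance trend (-0.09, limma adjusted p = 0.0479).

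The 2 lowest log2 differences of the 44 genes were those of R-spondins. Rspo1 ranged from 6.10 to 9.11 RPKM in WT (median 7.66) and from 3.92 to 6.79 RPKM in KO (median 5.10), and 8 KO libraries lay below the whole WT range. Its log2 value was lower in KO by -0.52 (SE 0.09, limma adjusted p = 0.00027). Rspo1 made up 76.6% of the R-spondin RPKM in WT and 73.2% in KO, and the class sum ranged from 8.06 to 11.6 RPKM in WT and from 5.53 to 9.06 RPKM in KO. Rspo2 was scarce, at 0.184 to 0.708 RPKM in WT (median 0.346) and 0.0218 to 0.547 RPKM in KO (median 0.116), with means of 21.8 (WT) and 9.88 (KO) fragments per library. In KO 9 libraries lay below the lowest WT library, but those at 20, 36 and 48 h did not, and the log2 difference was -0.97 (SE 0.22, limma adjusted p = 0.00221). Its size depended on the constant added before the logarithm, being -0.25 with 1 and -1.47 with 0.01, with the call kept, and the ratio of the mean RPKM was 0.425. Rspo3 differed by -0.11 and did not pass (limma adjusted p = 0.209), and Rspo4 was below the minimum.

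Among the genes through which R-spondins act, Lgr5, an R-spondin receptor and stem cell marker, passed. It was at 0.211 to 0.394 RPKM in WT (median 0.332) and at 0.135 to 0.369 RPKM in KO (median 0.240), with a log2 difference of -0.28 (SE 0.09, limma adjusted p = 0.0254) that rested on a mean of 26.6 and 20.9 fragments per library. The ligase genes Rnf43 (0.21, limma adjusted p = 0.0785) and Znrf3 (-0.14, limma adjusted p = 0.0716) had log2 differences of opposite sign and did not pass. Rnf43 passed without the WT library of 24 h (0.26) or the KO library of 16 h (0.24), and Znrf3 without the WT library of 20 h (-0.16) or the KO library of 16 h or 48 h (-0.16 and -0.15).

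Secreted inhibitors of the pathway differed in both directions. Sfrp1, which binds Wnt proteins outside the cell, was the most abundant of the 53 genes, at 31.3 to 42.7 RPKM in WT (median 36.65) and 26.0 to 36.2 RPKM in KO (median 29.8). It was lower in KO at each of the 12 hours, by -0.29 on the log2 scale (SE 0.06, limma adjusted p = 0.0008). Sfrp2 went the other way, from 9.69 to 13.6 RPKM in WT (median 10.7) and from 10.9 to 15.2 RPKM in KO (median 12.6), a difference of 0.17 (SE 0.05, limma adjusted p = 0.0214). Sfrp4 was low but differed most, with 0.398 to 1.71 RPKM in WT (median 1.14) and 1.26 to 2.97 RPKM in KO (median 2.14). At every hour its KO library was the higher one, and the log2 difference was 0.85 (SE 0.18, limma adjusted p = 0.00152). The RPKM summed over the 4 genes had a median of 49.9 in WT and 44.1 in KO.

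Sfrp5 had the largest SD of log2(RPKM + 0.1) of the 44 Wnt genes in both genotypes, 1.09 in WT and 0.91 in KO, with values from 0.0453 to 0.927 RPKM in WT and from 0.0537 to 0.869 RPKM in KO. Its 95% interval for the log2 difference, from -1.08 to 0.53, was the widest of the 44.

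Of the 3 Dickkopf genes tested, 2 were higher in KO. Dkk2, which binds LRP co-receptors, ranged from 3.76 to 5.49 RPKM in WT (median 4.56) and from 5.48 to 8.07 RPKM in KO (median 6.72). Only the KO library of 16 h reached into the WT range, and only the WT library of 44 h into the KO range. This difference, 0.54 on the log2 scale (SE 0.07), had the smallest adjusted p of the 44 Wnt genes (limma, 3.8e-06). Dkk3, a divergent member of the family that was the most abundant of the 4, ranged from 7.21 to 9.80 RPKM in WT (median 8.89) and from 8.99 to 12.1 RPKM in KO (median 9.86). It was higher in KO at 9 of 12 hours, by 0.22 (SE 0.06, limma adjusted p = 0.0106), but over 36 to 56 h alone the difference was 0.05 (limma adjusted p = 0.62). Dkk1, a classical inhibitor at LRP5 and LRP6, did not pass (-0.16, limma adjusted p = 0.358), nor did Wif1 (-0.13, limma adjusted p = 0.432), and Dkk4 had no fragment in any library.

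In the cell, the axins hold together the complex that breaks down β-catenin. Axin1, which had medians of 7.19 (WT) and 6.83 RPKM (KO), did not pass (-0.05, 95% interval -0.12 to 0.01). Axin2, itself a target of the pathway in many tissues, ranged from 1.97 to 3.01 RPKM in WT (median 2.47) and from 2.12 to 4.17 RPKM in KO (median 3.07). In KO 7 libraries were above the highest WT library, and the log2 difference was 0.31 (SE 0.09, limma adjusted p = 0.0169).

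By limma 0 of the 4 TCF/LEF genes passed, and 2 were at an unadjusted p under 0.05 (Tcf7l1 and Tcf7l2). Tcf7l1, the most abundant, ranged from 7.65 to 8.78 RPKM in WT (median 8.05) and from 7.20 to 8.39 RPKM in KO (median 7.75), with a log2 difference of -0.06 (95% interval -0.12 to -0.01, limma adjusted p = 0.0967). Tcf7l2 (-0.15), Lef1 (-0.21) and Tcf7 (-0.02) had adjusted p from 0.0867 to 0.918 by limma.

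By level, the 10 most abundant Wnt genes over all 24 libraries were Sfrp1, Fzd1, Sfrp2, Fzd2, Fzd7, Wnt4, Dkk3, Lrp5, Tcf7l1 and Lrp6, in this order of mean RPKM, a scale that corrects for length. Of neighbours in this order, only Fzd1 and Sfrp2 had values that did not overlap. The SD of log2(RPKM + 0.1) over the libraries of a genotype had a median of 0.18 in WT and 0.20 in KO over the 44 genes, against 0.14 in both for all genes tested. It was larger in KO for 31 of the 44, Rspo2 having the largest SD in KO among these (0.66, against 0.44 in WT).

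Other genes of the pathway were followed through a list of 49, of which 46 entries were tested, Kremen1 with 2. Of these, 11 were called higher in KO, 6 lower and 29 neither, with a median log2 difference of -0.00044. Among all genes tested, 11.2% were called higher and 14.7% lower. Higher were Ror1 (0.32), a co-receptor for Wnt5a, the receptor Ryk (0.10), and the inhibitors Nkd2 (0.31) and Notum (0.24). Myc (0.29) was also higher, and so was Wls (0.10), which carries Wnt proteins to the cell surface. The planar polarity gene Celsr1 (0.27), the glypican Gpc4 (0.25), the kinase gene Csnk1a1 (0.14) and both entries of the Dickkopf receptor Kremen1 (0.16 and 0.23) were higher as well. Lower were the secreted inhibitor Sostdc1 (-0.95), the glypican Gpc3 (-0.44), the Frizzled partner Tspan12 (-0.23) and Porcn (-0.23), which attaches the lipid to Wnt proteins, together with the β-catenin partner Bcl9 (-0.17) and the corepressor Tle1 (-0.11). Ctnnb1, the gene of β-catenin itself, was among those that did not pass, at 0.04.

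A change over the hours after dexamethasone, a slope shared by both genotypes, was called by limma for 4 of the 44 Wnt genes (9.09%), against 10.3% of all genes. Sfrp4 rose by 0.48 log2 units per 24 h (SE 0.13, limma adjusted p = 0.0165) and Fzd4, a receptor of blood vessels in the retina, by 0.18 (SE 0.05, limma adjusted p = 0.0173). Fzd4 went from 2.90 RPKM in WT and 2.62 in KO at 12 h to 3.26 and 3.45 at 56 h. Wnt10b and Wnt2 fell, by -0.51 (SE 0.13, limma adjusted p = 0.0159) and -0.19 (SE 0.05, limma adjusted p = 0.0212) per 24 h. Wnt10b is rare, with means of 9.96 (WT) and 12.3 (KO) fragments per library, and went from 0.338 RPKM in WT and 0.543 in KO at 12 h to 0.219 and 0.208 at 56 h.

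The calls of both falls were lost without the libraries of 12 h, although the slopes were of about the same size, -0.49 for Wnt10b and -0.20 for Wnt2 (limma adjusted p = 0.0648 and 0.0533). In addition, Wnt2 did not pass without the WT library of 16 h (-0.16) or the KO library of 12 h (-0.18). Without the WT library of 56 h, Lef1 (-0.33) and Fzd1 (-0.11) passed as well, and so did Fzd1 without the WT library of 16 or 52 h or the KO library of 24 h, Wnt11 without the KO library of 40 h (-0.15) and Rspo3 without that of 56 h (0.18). With all libraries kept, Fzd1 (-0.09) also passed under a mean-variance trend (limma adjusted p = 0.0436) and under a minimum mean of 1 RPKM (limma adjusted p = 0.0497). Fitted on 12 libraries of a single genotype, none of the 4 passed in WT or in KO. A difference in slope between the genotypes was called by limma for 0 Wnt genes and 0 genes in all (0%), with 1110 genes at an unadjusted p under 0.05, among them the Wnt genes Dkk3, Fzd1 and Tcf7l2.

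**Figure D5:**
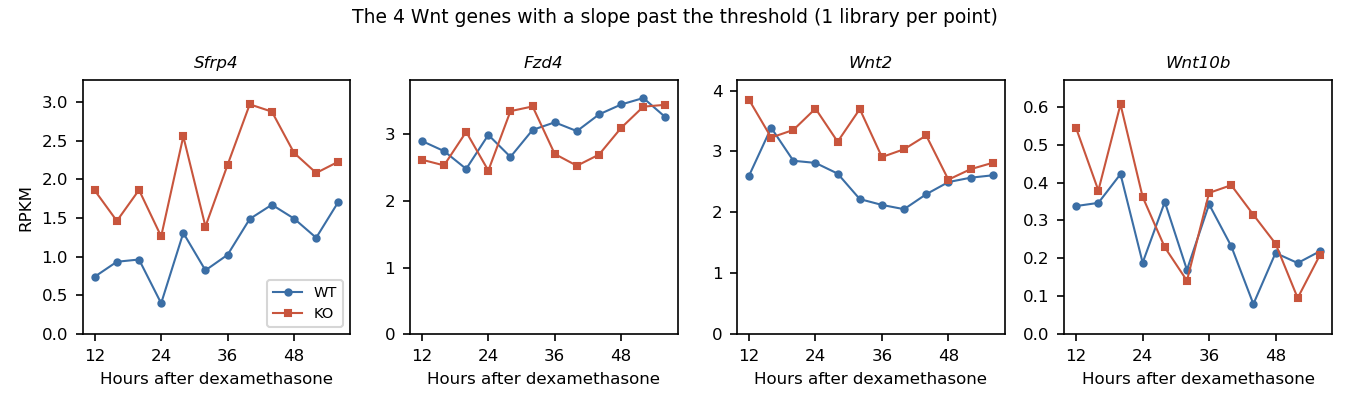
RPKM of the 4 Wnt genes with a called slope against hours after dexamethasone in WT (blue circles) and KO (red squares), with 1 library per point. Sfrp4 lies higher in KO at all 12 hours, and its slope over both genotypes together is 0.48 log2 units per 24 h, while Wnt10b goes from 0.338 and 0.543 RPKM at 12 h to 0.219 and 0.208 RPKM at 56 h.

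A rhythm of 24 h was tested by cosine and sine terms beside a linear trend for each genotype. In WT limma called 0 of the 44 Wnt genes, against 0.0463% of all genes, and 5 were at an unadjusted p under 0.05 (Tcf7, Sfrp5, Wnt7a, Wnt10a and Sfrp2), where 7.57% of all genes were. In KO limma again called 0 Wnt genes, against 0.0728% of all genes, and 12 were at an unadjusted p under 0.05, where 7.92% of all genes were. Ligands made up 8 of these 12, namely Wnt7a, Wnt6, Wnt10a, Wnt3, Wnt4, Wnt7b, Wnt10b and Wnt11. The other 4 were Fzd4, Axin2, Wif1 and Rspo1. The first 6 ligands named are those that varied together in KO (r of 0.76 to 0.95), so they do not count as separate observations of a rhythm.

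Wnt7a came closest to a call in KO, with an amplitude of 0.64 log2 units, a fitted peak at 17.8 h of the 24 h cycle and an adjusted p of 0.0655 (limma over 12 KO libraries with the spread of all 24). Picked from its high and low points, KO values were 0.711 RPKM at 20 h, 0.241 at 32 h, 0.711 at 40 h and 0.275 at 52 h. Each comes from 1 library with few fragments, the other hours are not listed, and they do not establish a rhythm. The fitted peaks of the 6 ligands with the largest differences lay between 17.7 and 18.4 h in KO, and 6 of the 10 epithelial markers were at an unadjusted p under 0.05 there, with fitted peaks of the 10 between 15.7 and 17.6 h. The sampled span covers less than 2 full cycles. A difference in rhythm between the genotypes was called by limma for 0 Wnt genes and 0 genes in all (0%), with 729 genes and 5 Wnt genes at an unadjusted p under 0.05, and Wnt7a had the smallest p of the 44 (0.0027, limma adjusted p = 0.857). The amplitudes in WT and KO, 0.31 and 0.64 for Wnt7a, are therefore given side by side only.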

How the data were processed

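The authors sequenced polyA-selected RNA as 101-bp paired-end reads, used Trimmomatic 0.36 for trimming and STAR 2.5.4b for alignment to GRCm38, removed alignments of a mapping quality under 10 with SAMtools and counted reads over exons with HOMER, with 1 canonical UCSC transcript per gene (versions from the submitters' processing notes). The values they deposited are RPKM, scaled to exonic length and library total, so no test for counts was used and the error of scarce genes is not modelled. The use of strand is not given in the sources used here, and overlapping genes can share reads. Exonic length, another column deposited by the authors, gave RPM and fragments.

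The model of limma 3.58.1 (R 4.3.3) was fitted to log2(RPKM + 0.1) of all genes that passed the minimum, and other values were computed in Python 3.11.15. The study's MetaCycle was replaced by a 24 h cosine model. The scripts were tested on simulated data. The members, the lists and the tests were chosen with earlier results of these data known. Given in full are members past the threshold between genotypes, the 10 most abundant, and up to 6 with the smallest p in the slope and rhythm tests, the others by range and count. Other pathway genes are named where they passed, except Ctnnb1, which was chosen after its value was seen. The 6 co-varying ligands were also chosen so, as were the libraries left out for their marker sums. Alternatives changed the pseudocount (1 or 0.01), filter, normalization, variance trend, covariates, block, period and libraries. No 2 libraries of a genotype agreed within sampling noise (132 pairs, lowest mean chi-square per gene 2.26).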

Additional observations from a re-analysis of the deposited data

How the results depend on the processing

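No Wnt gene past the threshold changed direction under any alternative run. Between the genotypes, the counts with all libraries were 3918 genes, 13 Wnt genes higher and 7 lower. The 7 lower became 4 after quantile normalization, 4 over 12 to 32 h and 4 over 36 to 56 h, where all genes called numbered 1115 and 1903, with fewer libraries in the last 2. Some of the 13 higher were lost over 12 to 32 h and over 36 to 56 h as well, and are among those named below. Quantile normalization lost Lgr5 (limma adjusted p = 0.132), Wnt9a (0.0504) and Wnt2b (0.0582). Over 12 to 32 h Wnt6, Wnt9a, Wnt3, Axin2, Sfrp2, Wnt2b and Sfrp1 did not pass, and over 36 to 56 h Lgr5, Axin2, Wnt5a, Rspo2, Sfrp2, Wnt2b and Dkk3 did not. Dkk2, Fzd7, Rspo1, Sfrp4, Wnt2, Wnt4, Wnt7a, Wnt7b and Wnt10a passed under every alternative run for them. Leaving out 1 library at a time gave 3379 to 4163 genes, 13 to 14 Wnt genes higher and 7 to 9 lower. Time point as a block called 4212 genes and the same 13 and 7 Wnt genes, and the difference in slope and in rhythm called 0 genes with the block. Deviations from the genotype mean had a mean r of 0.16 between libraries of the same hour (range -0.18 to 0.39, over 0.1 in 7 of 12 pairs) and of -0.01 between libraries of different hours. For the slope, the 1562 genes became 194 in WT libraries only and 380 in KO libraries only, with 12 libraries in each fit, and 0 Wnt genes were called rising and 0 falling in either. The slopes kept their signs there, at 0.62 and 0.34 for Sfrp4, 0.20 and 0.15 for Fzd4, -0.42 and -0.60 for Wnt10b and -0.15 and -0.23 for Wnt2. Without the 12 h libraries 0 Wnt genes were called falling. Leaving out 1 library at a time gave 1207 to 1694 genes, 2 to 3 Wnt genes called rising and 1 to 4 called falling, with 1 without the KO library of 12 h and 4 without the WT library of 56 h. The 7 genes rhythmic in WT became 2 with a period of 22 h and 1 with 26 h, the 11 in KO became 5 and 6, and a pseudocount of 1 called 1 Wnt gene in KO, Wnt7a (limma adjusted p = 0.0039). The difference in rhythm called 1 gene without the linear trend. Causes of these changes were not tested. With 1 library per hour, nothing can be said of a single hour, and members with a mean under 30 fragments over the 24 libraries (Wnt7a, Wnt10b, Rspo2, Lgr5, Wif1, Sfrp5 and Fzd10 among those tested) carry a large counting error.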
